A study of Mus musculus with 8 samples.

Results

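The ephrin ligands are 8 genes of the deposited gene table, taken by name out of 20254 genes. Efna1, Efna2, Efna3, Efna4 and Efna5 form the A class, and Efnb1, Efnb2 and Efnb3 form the B class. The genes were taken by family name and not by a threshold on their values. The libraries came from nephron progenitor cells of mouse kidneys at embryonic day 17.5, sorted for green fluorescence, and hold polyadenylated RNA. In 4 mutant libraries the cells carried the genotype VHLNP-/-, with both Vhl alleles deleted, and in 4 control libraries the genotype VHLNP+/-. All 8 libraries came from the Six2EGFPcre strain, in which Six2 regulatory sequence drives a fusion of GFP and Cre recombinase, so the controls also carry the transgene and had lost 1 Vhl allele. Vhl encodes the substrate-binding subunit of a ubiquitin ligase that targets hypoxia-inducible factor (HIF) alpha subunits for degradation. Since the labels name no separate embryos or pools behind the libraries of a group, the p-values reflect library-to-library spread, and part of that may be technical.

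Ephrins are cell-surface ligands of the Eph receptor tyrosine kinases, and both partners signal when cells touch. A class ephrins are held in the membrane by a lipid anchor and bind mainly EphA receptors. B class ephrins cross the membrane, end in a cytoplasmic tail that binds PDZ domain proteins, and bind mainly EphB receptors. Forward signals run into the cell with the receptor and reverse signals into the cell with the ephrin, and together they set tissue boundaries, cell sorting and blood vessel identity. In the kidney, ephrin-B2 and its receptor EphB4 are known from developing vessels, and ephrin-B1 from podocytes. In human cells, EFNA1 and EFNA3 have been described as responsive to hypoxia.

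The libraries held 37252683 to 46515762 reads in genes. Values below are normalised reads, which are reads divided by a size factor for depth, and log2 fold changes are differences of log2(normalised reads + 1), mutant minus control. Vhl stood at 320, 285, 331 and 336 normalised reads in mutants 1 to 4, against 1134, 1379, 1208 and 1180 in controls 1 to 4 (log2 fold change -1.94, limma adjusted p = 4.22e-08). Summed reads of 10 nephron progenitor markers were between 103319 and 111667 in mutants and between 105575 and 115340 in controls, with Six2 at 24101 ± 2213 in mutants and 25540 ± 2806 in controls (SD, n = 4 each). Of these markers Gdnf rose (log2 fold change 0.39, limma adjusted p = 0.0101), and Meox1 (-0.40, 0.00396), Tmem100 (-0.53, 0.0205) and Osr1 (-0.25, 0.0404) fell, each with separate groups. The other 6, Six2 among them, had a limma adjusted p above 0.05. Over all tested genes, 8.43% had one under 0.05 and 15.3% had separate groups. Markers of other cell types were also read, with none at 0 in any library. Mutant 2 among mutants and control 3 among controls had the lowest sums for early nephron, podocyte, tubule, ureteric, stromal, endothelial and leukocyte markers. Control 3 was also the library whose profile lay nearest to one of the other group (Pearson correlation across genes 0.986 with mutant 2). In bulk RNA, fewer cells of a type and less RNA per cell cannot be told apart.

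Transcripts of all 8 ephrins were read in every library and passed the filter on low values, and none was called as changed between mutants and controls. Efnb2, Efna1 and Efnb3 averaged higher in mutants, Efna2, Efnb1, Efna5 and Efna4 averaged lower, and Efna3 differed by 0.006 on the log2 scale. Calls required a limma adjusted p under 0.05, which 0 of the 8 ephrins reached, beside 8.43% of 15381 tested genes. That background is 1297 genes, of which 831 (5.4%) were higher and 466 (3.03%) lower in mutants. Leaving out control 4 gave 816 genes, and leaving out mutant 4 gave 774. At an unadjusted p under 0.05 there were 3 of 8 ephrins (Efna1, Efna2 and Efnb2), beside 23.3% of all tested genes. The mutant and control ranges overlapped for every ephrin, while they were separate for 15.3% of tested genes. The largest log2 fold changes were 0.26 for Efnb2 and -0.26 for Efna2. The 95% intervals of all 8 lay between -0.47 and 0.45, or between 0.724-fold and 1.37-fold. Among the called genes the median absolute log2 fold change was 0.48, and 134 of them had one of at most 0.26. Changes of the size estimated for Efnb2 and Efna2 were thus called elsewhere in the fit. Efnb2 and Efna2 varied more within groups than 85.5% and 79.7% of genes of like level. Those calls therefore do not show what the fit could detect for Efnb2 and Efna2. The median log2 fold change was -0.029 for the ephrins and -0.0069 for all tested genes. With limma-voom the number of called ephrins was also 0, and the authors' deposited table calls 1 of the 8, Efnb2, beside 12.5% of 15144 genes.

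**Figure D1:**
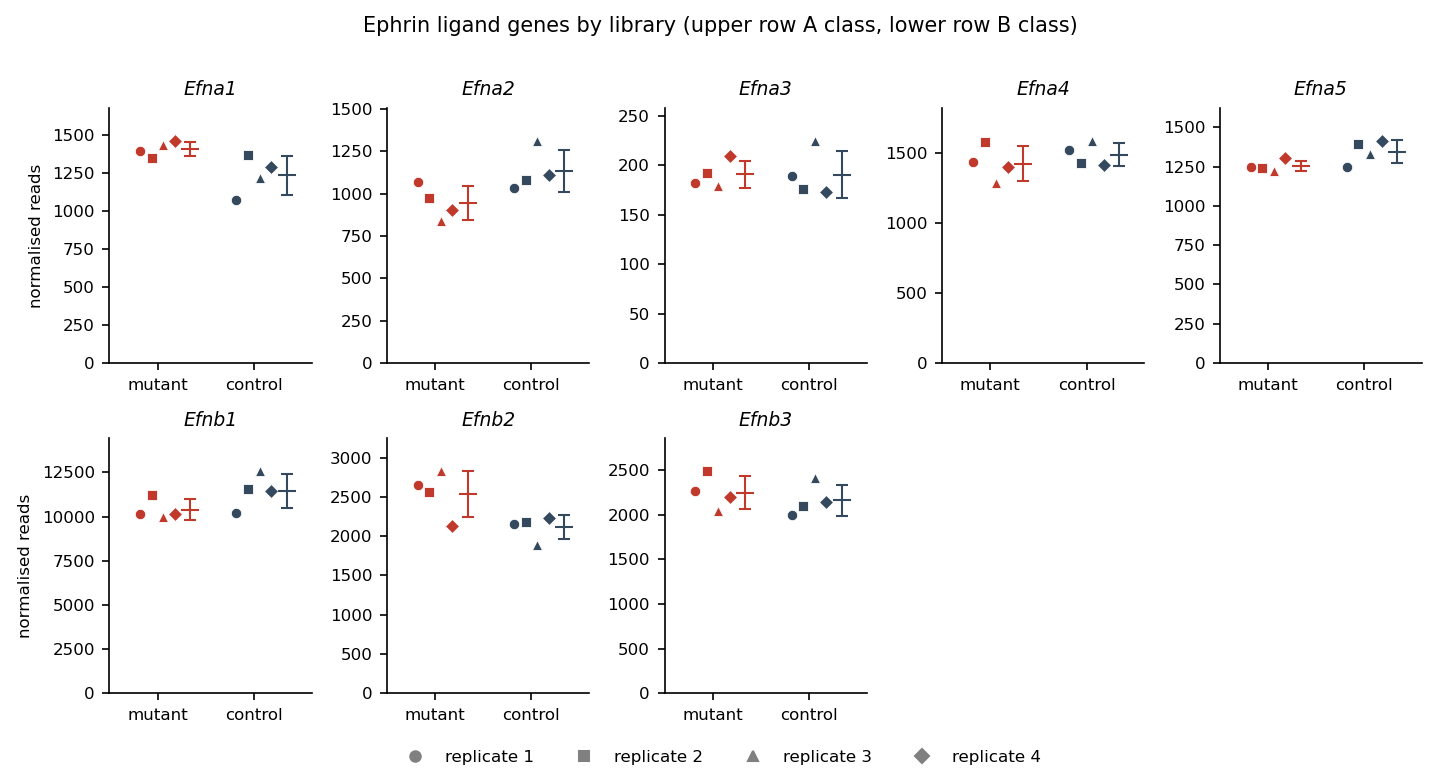
Normalised reads of each ephrin gene in every library (vertical axes start at 0), with mutants left of controls, marker shapes for replicates 1 to 4, and bars for the mean and SD of 4 libraries. The mutant and control ranges overlap in all 8 panels, with mutant 4 apart from the other mutants for Efnb2 and control 3 highest for Efna2, Efna3, Efna4 and Efnb1.

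In the A class, Efna1 and Efna2 had the largest estimates, with opposite signs. Efna1 encodes ephrin-A1, a main ligand of EphA2. It was at 1391, 1345, 1429 and 1457 normalised reads in mutants 1 to 4, against 1068, 1367, 1215 and 1285 in controls 1 to 4. Mutants exceeded controls in 15 of 16 pairs of libraries, and the overlap came from mutant 2 and control 2. The means were 1406 ± 48.8 in mutants and 1234 ± 127 in controls (SD, n = 4 each), a log2 fold change of 0.19 (SE 0.076, limma adjusted p = 0.155). With 1 library left out it ran from 0.13 (without control 1, the lowest library) to 0.24 (without control 2). The limma adjusted p of these fits ran from 0.104 to 0.329. In an exact permutation test (two-sided, 70 ways to label 4 of 8 libraries) p was 0.0571, and the smallest p possible is 0.0286.

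Efna2 encodes ephrin-A2, which with ephrin-A5 guides axons of the visual system to their targets. Its levels were 1068, 973, 836 and 904 normalised reads in mutants 1 to 4, against 1030, 1080, 1309 and 1111 in controls 1 to 4. Mutant 1 lay above control 1, and in the other 15 of 16 pairs the control was higher. With means of 945 ± 99.4 in mutants and 1132 ± 122 in controls (SD, n = 4 each), the log2 fold change was -0.26 (SE 0.094, limma adjusted p = 0.122) and the exact permutation p was 0.0571. Without control 3 and mutant 2 together the log2 fold change was -0.20 (adjusted p = 0.300). With 1 library left out it ran from -0.32 without mutant 1 (limma adjusted p = 0.0607) to -0.19 without control 3 (0.263).

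Efna3, Efna4 and Efna5 differed less. Efna3, an EphA ligand and the scarcest ephrin here, had 182, 192, 179 and 210 normalised reads in mutants 1 to 4, against 189, 176, 224 and 173 in controls 1 to 4. The 2 means were 190.7 ± 13.9 in mutants and 190.6 ± 23.6 in controls (SD, n = 4 each), with a 95% interval of the log2 fold change from -0.25 to 0.27 (the estimate was -0.0046 with TMM, another scaling for depth). The highest library of all was a control, so the mutant values sat inside the control range. Efna4, which encodes another EphA ligand and is linked to coronal craniosynostosis in humans, averaged 1427 ± 123 in mutants and 1489 ± 81.4 in controls (SD, n = 4 each, log2 fold change -0.064, 95% interval -0.22 to 0.094, limma adjusted p = 0.650). Its estimate was -0.12 without mutant 2 and -0.016 without mutant 3. Exons of Efna3 and Efna4 overlap antisense genes, Gm15998 and 4731419I09Rik. The library kit keeps strand, but no source used here states whether the counting did, so reads of the 2 strands may not be separated.

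Efna5 encodes ephrin-A5, which also binds EphB2. It was the most even of the 8, at 1246, 1243, 1224 and 1302 normalised reads in mutants 1 to 4 and 1248, 1391, 1328 and 1411 in controls 1 to 4. Controls were higher in 15 of 16 pairs, with only mutant 4 above control 1. The means of 1254 ± 33.8 in mutants and 1345 ± 73.5 in controls (SD, n = 4 each) gave a log2 fold change of -0.10 (SE 0.059, 95% interval -0.23 to 0.029, limma adjusted p = 0.344; exact permutation p = 0.0571).

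In the B class, Efnb2 was the ephrin with the smallest adjusted p. It encodes ephrin-B2, the ligand of EphB4 that marks arterial endothelium. Its levels were 2646, 2565, 2823 and 2133 normalised reads in mutants 1 to 4, against 2155, 2181, 1891 and 2234 in controls 1 to 4. Mutants 1, 2 and 3 lay above every control, while mutant 4 lay below 3 of the 4 controls. The means were 2542 ± 293 in mutants and 2115 ± 153 in controls (SD, n = 4 each), a fold of 1.20 and a log2 fold change of 0.26 (SE 0.088, 95% interval 0.068 to 0.45, limma adjusted p = 0.0984; exact permutation p = 0.114). Without mutant 4 the log2 fold change was 0.34 and the gene was called (adjusted p = 0.0268). The authors' deposited table gives 0.27 with an adjusted p of 0.0422, and without control 3 and mutant 2 together limma gave 0.20 (adjusted p = 0.320).

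Endothelial markers are given beside Efnb2 because it is known from vessels. Of 12 markers, 1 rose and 0 fell, beside 5.4% and 3.03% of all tested genes. Among the 12 estimates 7 were positive and 5 negative, with a median log2 fold change of 0.067. The marker that rose was Plvap, a protein of fenestrated endothelium, at 741 ± 92.8 in mutants and 519 ± 60.6 in controls (SD, n = 4 each, log2 fold change 0.51, adjusted p = 0.0135, and 0.053 without mutant 4). The summed markers were 2760, 2108, 2167 and 2327 normalised reads in mutants 1 to 4, against 2278, 2943, 1508 and 2322 in controls 1 to 4. Control 3 was lowest both in this sum and in Efnb2, but mutant 3 was highest in Efnb2 with the next lowest mutant sum. The part of endothelial cells in the Efnb2 values was not tested.

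Efnb1, on the X chromosome, encodes ephrin-B1, and its human counterpart is mutated in craniofrontonasal syndrome. It had 10149, 11244, 9955 and 10159 normalised reads in mutants 1 to 4, against 10183, 11554, 12546 and 11420 in controls 1 to 4. Mutants 1, 3 and 4 lay below every control, and mutant 2 lay above control 1. The means were 10377 ± 586 in mutants and 11426 ± 969 in controls (SD, n = 4 each), a log2 fold change of -0.14 (SE 0.070, 95% interval -0.29 to 0.018, limma adjusted p = 0.274; exact permutation p = 0.0571). With 1 library left out the log2 fold change ran from -0.19 without control 1 (limma adjusted p = 0.0765) to -0.090 without control 3 (0.511). Mutant 2 and control 2 had almost no reads of Xist, the RNA of the inactive X chromosome, with 51.9 and 8.84 normalised reads against 60017 to 111673 in the other mutants and 60879 to 65446 in the other controls. Without these libraries the Efnb1 estimate was -0.17 (adjusted p = 0.343).

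Podocytes are a further known site of ephrin-B1. Of 10 podocyte markers, 1 rose and 1 fell, beside 5.4% and 3.03% of all tested genes. Among the 10 estimates 8 were negative, with a median log2 fold change of -0.63. Their summed level was between 10708 and 15309 in mutants and between 12720 and 23059 in controls. Control 3, with the highest Efnb1 level, had the lowest podocyte sum of the controls, and the part of these cells in the Efnb1 values was not tested.

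Efnb3 encodes ephrin-B3, a midline guidance cue that binds EphA4. It had 2262, 2481, 2035 and 2199 normalised reads in mutants 1 to 4, against 1999, 2099, 2406 and 2142 in controls 1 to 4. High and low libraries were found in both groups, with mutants above controls in 11 of 16 pairs. The log2 fold change was 0.054 (SE 0.075, 95% interval -0.11 to 0.22, limma adjusted p = 0.728). It was 0.11 without control 3 and 0.0043 without mutant 2.

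Levels of different ephrins were compared per kilobase of merged exons, from GENCODE M21. The order and the class sums depend on these lengths, from 1599 bases for Efna4 to 6855 for Efnb2. Other lengths were not tested. By the mean over all 8 libraries, the order ran from Efnb1 through Efna4, Efna1, Efnb3, Efna2, Efnb2 and Efna5 to Efna3. Efnb1 was at 3006 ± 170 normalised reads per kb in mutants and 3310 ± 281 in controls (SD, n = 4 each), above 96.6% of the tested genes that have a length. It exceeded Efna4, the next in order, by 3.09 to 3.75 times in every library. Efna4 was at 892 ± 76.8 reads per kb in mutants and 931 ± 50.9 in controls (SD, n = 4 each). At the low end Efna3 was at 78.4 ± 5.70 in mutants and 78.3 ± 9.70 in controls (SD, n = 4 each), and Efna5 exceeded it by 3.57 to 4.93 times in every library. Every other ephrin lay above Efna3 in each library.

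The middle of the order was less fixed. Efna1 (768 ± 26.7 reads per kb in mutants, 674 ± 69.4 in controls) stood above Efnb3 (705 ± 57.9 in mutants, 679 ± 54.6 in controls) in 5 of 8 libraries. Efna2 (444 ± 46.6 in mutants, 531 ± 57.3 in controls) stood above Efnb2 (371 ± 42.7 in mutants, 309 ± 22.3 in controls) in 7 of 8. Efnb2 stood above Efna5 (311 ± 8.38 in mutants, 334 ± 18.2 in controls) in 4 of 8 (SD, n = 4 each throughout), namely 3 of 4 mutants and 1 of 4 controls. By group means, in controls Efnb3 stood above Efna1 and Efna5 above Efnb2. Efna1 and Efnb3, and Efnb2 and Efna5, thus did not differ beyond their spread over libraries, and for Efna2 and Efnb2 the exception was mutant 3. The other neighbours kept their order in 8 of 8 libraries, with Efna4 above Efna1 by as little as 1.03 times.

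**Figure D2:**
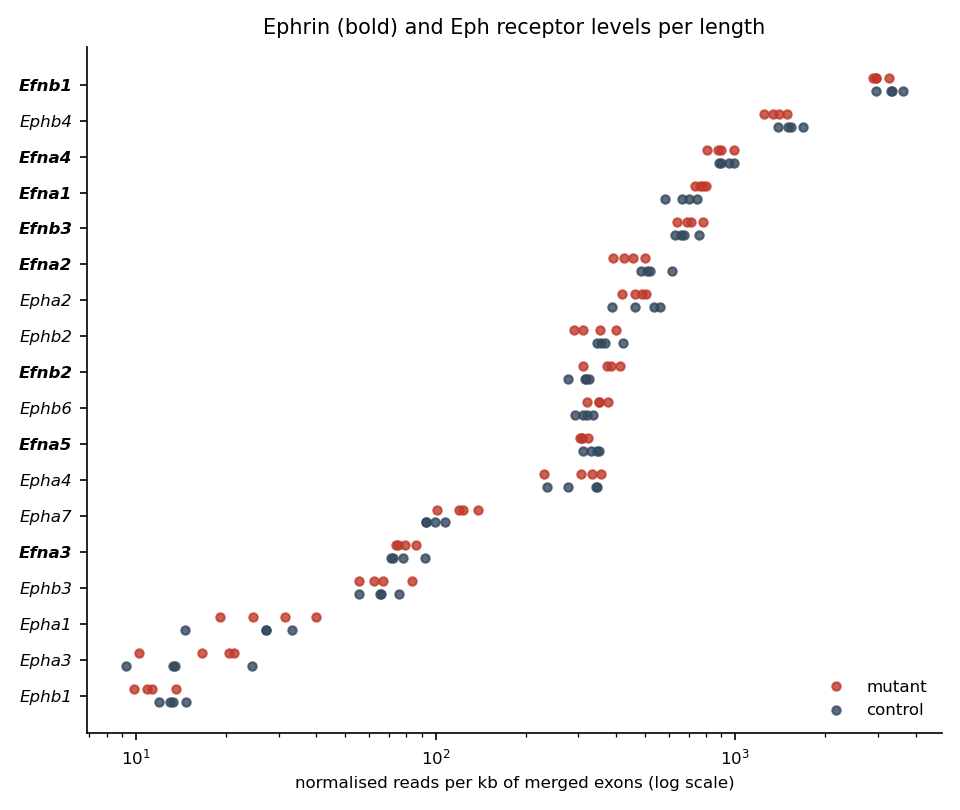
Normalised reads per kilobase of merged exons (log axis) for the ephrins, in bold, and the Eph receptors, with 1 point per library, mutants above controls in each row. Efnb1 lies highest and Efna3 lowest of the ephrins, and Ephb4 is the highest receptor; Epha5, Epha6, Epha8 and Epha10, at no more than 1.85 reads per kb in any library, are not drawn.

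Summed per class, the A class ephrins gave 2493 ± 96.0 normalised reads per kb in mutants and 2548 ± 117 in controls (SD, n = 4 each). The B class gave 4082 ± 224 in mutants and 4298 ± 317 in controls (SD, n = 4 each). The ratio of B to A class was 1.64 ± 0.07 in mutants and 1.68 ± 0.05 in controls (SD, n = 4 each), so it differed by less than the spread. Efnb1 alone made up 44.7%, 46.7%, 45.9% and 45.6% of all ephrin reads per kb in mutants 1 to 4, against 46.8%, 48.6%, 49.4% and 48.4% in controls 1 to 4. The groups overlapped for both class sums, for their ratio and for Efnb1 itself. For the Efnb1 share the highest mutant, mutant 2, lay just below the lowest control, control 1. This share moves with Efnb1 itself and with Efna1 and Efnb2, and no test was made of it.

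The ephrins differed in how evenly they were expressed among libraries of a group. Efna5 had the smallest spread, with coefficients of variation of 2.70% in mutants and 5.47% in controls, where counting alone gives 2.77%. Its SD within groups was smaller than that of all but 13.3% of tested genes of like level. Efnb2 (11.5% in mutants and 7.24% in controls, against 2.06% from counting) and Efna2 (10.5% and 10.8% in mutants and controls, against 3.09%) were the most variable for their level, above 85.5% and 79.7% of such genes. For Efnb1 counting gives 0.955%, while the observed spread was 5.64% in mutants and 8.48% in controls. For Efna3 counting gives 7.23%, close to its spread in mutants (7.27%), which was 12.4% in controls. Control 3 was the highest library for Efna2, Efna3, Efna4 and Efnb1, and mutant 3 was the lowest for Efna2, Efna4, Efna5 and Efnb1.

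The A class has a cluster on chromosome 3, where Efna1 (chr3:89271733-89281142), Efna3 (chr3:89313899-89322965) and Efna4 (chr3:89333390-89338028) lie on the minus strand within 66.3 kb of the mm10 assembly. Their log2 fold changes of 0.19, 0.006 and -0.064 had overlapping 95% intervals, which is no test of a difference between the genes. None of them was called. Nor was any of the 5 neighbouring protein-coding genes with values. On the Efna1 side these were Krtcap2, an oligosaccharyltransferase subunit (-0.21, limma adjusted p = 0.132), Dpm3, a mannosyltransferase subunit (-0.046, 0.809), and the sugar transporter gene Slc50a1 (-0.093, 0.419). On the Efna4 side they were the metalloprotease gene Adam15 (-0.018, 0.906) and Dcst1 (0.38, 0.364), the last at 39.9 ± 8.34 normalised reads in mutants and 30.5 ± 7.27 in controls (SD, n = 4 each). The other ephrins lie apart, Efna2 at chr10:80179482-80190010 (plus strand), Efna5 at chr17:62604184-62881317 (minus), Efnb1 at chrX:99136130-99148991 (plus), Efnb2 at chr8:8617434-8661242 (minus) and Efnb3 at chr11:69554092-69560205 (minus).

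**Figure D3:**
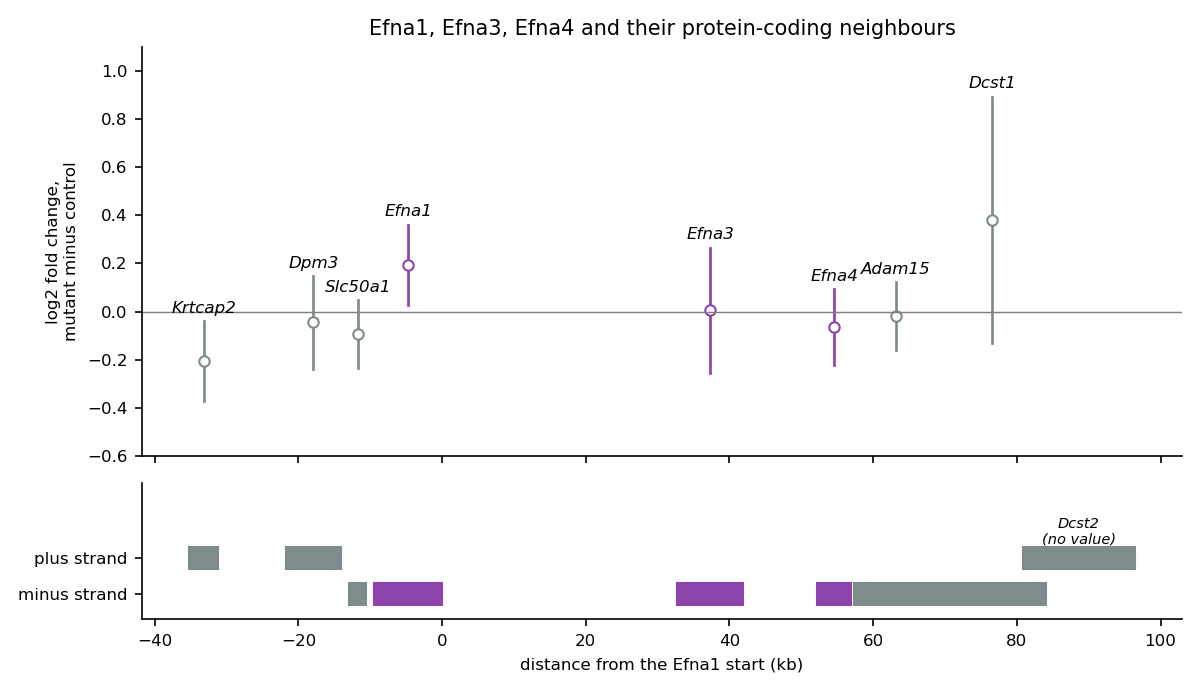
Upper panel, log2 fold change (mutant minus control) with its 95% interval for Efna1, Efna3 and Efna4 (purple) and neighbouring protein-coding genes (grey), against distance in kb from the Efna1 start; lower panel, the extent of each gene on its strand. No gene of the cluster or beside it was called, and the estimates run from -0.21 for Krtcap2 to 0.38 for Dcst1.

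HIF binds DNA at a short core, and the 250 bases before each annotated start were searched for ACGTG and GCGTG on both strands, counting overlapping matches. The windows come from RefSeq (GRCm38.p6, the build mm10) and cover 7 of the 8 ephrins with 9 starts; Efnb3 is not in that table. Of 32851 such windows of all genes, 38.6% held a match. The Efna3 starts held 2 and 3 matches, the Efna5 start 3 and the Efnb1 start 1, all of GCGTG or its reverse complement CACGC. There was no match at the Efna2, Efna4 and Efnb2 starts or at either start of Efna1. The G and C content of the ephrin windows was between 54.4% and 74.8%, against a median of 52.4% over all windows. Windows are printed for Efnb2 (chr8:8661243-8661492, minus strand) and Efna2 (chr10:80179232-80179481, plus strand), which had the largest estimates in either direction. Those of Efnb1 (chrX:99135811-99136060, plus strand) and Efna5 (chr17:62881318-62881567, minus strand) show the matches in capitals. Each reads 5′ to 3′ towards the start.
Efnb2: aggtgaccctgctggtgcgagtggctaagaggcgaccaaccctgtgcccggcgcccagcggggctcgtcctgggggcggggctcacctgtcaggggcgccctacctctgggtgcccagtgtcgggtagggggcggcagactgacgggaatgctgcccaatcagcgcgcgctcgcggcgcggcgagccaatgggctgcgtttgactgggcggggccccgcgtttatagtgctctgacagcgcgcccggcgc
Efna2: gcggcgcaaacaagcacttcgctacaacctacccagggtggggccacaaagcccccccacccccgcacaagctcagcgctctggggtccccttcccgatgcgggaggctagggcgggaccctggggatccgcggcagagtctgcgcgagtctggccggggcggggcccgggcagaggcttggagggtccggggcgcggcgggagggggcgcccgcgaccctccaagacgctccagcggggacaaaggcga
Efnb1: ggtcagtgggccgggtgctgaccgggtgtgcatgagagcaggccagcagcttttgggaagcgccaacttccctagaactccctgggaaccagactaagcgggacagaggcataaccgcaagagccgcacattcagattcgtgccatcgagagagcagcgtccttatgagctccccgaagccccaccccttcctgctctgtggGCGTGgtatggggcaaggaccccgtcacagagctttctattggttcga
Efna5: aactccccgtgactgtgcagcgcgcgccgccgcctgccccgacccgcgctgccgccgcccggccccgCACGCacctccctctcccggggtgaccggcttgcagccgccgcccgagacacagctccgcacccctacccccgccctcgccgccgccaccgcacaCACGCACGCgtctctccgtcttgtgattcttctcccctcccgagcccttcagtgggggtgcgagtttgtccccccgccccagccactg
A match is a string of letters and not a bound site, and the absence of one says only that these letters are not in this window.

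Among the receptors that ephrins bind, no transcript was called either. Of 14 Eph receptor genes in the table, 11 had enough reads to be tested, with 0 called in limma and 2 (Epha7 and Ephb6) at an unadjusted p under 0.05 there, and 1 (Epha7) called in the authors' deposited table. Over all tested genes these shares were 8.43%, 23.3% and 12.5%. Their median log2 fold change was 0.027, and their 95% intervals ran from -0.58 to 0.999, the widest of them those of scarce receptors. The 3 untested genes were Epha6, listed at 0 in all mutants and at 0 to 6.79 normalised reads in controls, and Epha8 and Epha10, with at most 8.73 in any library.

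Ephb4, the receptor of ephrin-B2, was the most abundant receptor per length, at 1369 ± 100 normalised reads per kb in mutants and 1528 ± 119 in controls (SD, n = 4 each). It had 6505, 6893, 5788 and 6221 normalised reads in mutants 1 to 4, against 6453, 7115, 7798 and 6989 in controls 1 to 4 (log2 fold change -0.16, limma adjusted p = 0.217). The ranges overlapped, with control 1 below mutants 1 and 2; its exons also overlap Zan on the other strand. The ligand and receptor thus had estimates of opposite sign, 0.26 for Efnb2 and -0.16 for Ephb4, neither of them called. Of the other ephrin-B receptors, Ephb2 (-0.15, adjusted p = 0.425), Ephb3 (0.022, 0.946) and the scarce Ephb1 (-0.21, 0.431) were not called, and Ephb6, which lacks kinase activity, was at 1321 ± 89.3 in mutants and 1187 ± 68.4 in controls (SD, n = 4 each, log2 fold change 0.15, adjusted p = 0.208).

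Epha7, a receptor of several A class ephrins, had the smallest adjusted p of the receptors. It had 1188, 998, 1365 and 1219 normalised reads in mutants 1 to 4, against 1067, 921, 921 and 986 in controls 1 to 4. Only mutant 2 fell within the control range. The log2 fold change was 0.29 (SE 0.093, limma adjusted p = 0.0878), called without mutant 2 (0.37, adjusted p = 0.0225) and in the authors' deposited table (adjusted p = 0.0422). Epha2, the receptor of ephrin-A1, had a log2 fold change of -0.044 (95% interval -0.28 to 0.20, adjusted p = 0.861), and Epha4, which binds both classes, one of 0.027 (-0.36 to 0.41, adjusted p = 0.949). The scarce Epha1 (0.18, 0.763), Epha3 (0.21, 0.748) and Epha5 (0.21, 0.783) were also not called, and Epha1 shares exonic sequence with Zyx on the other strand.

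**Figure D4:**
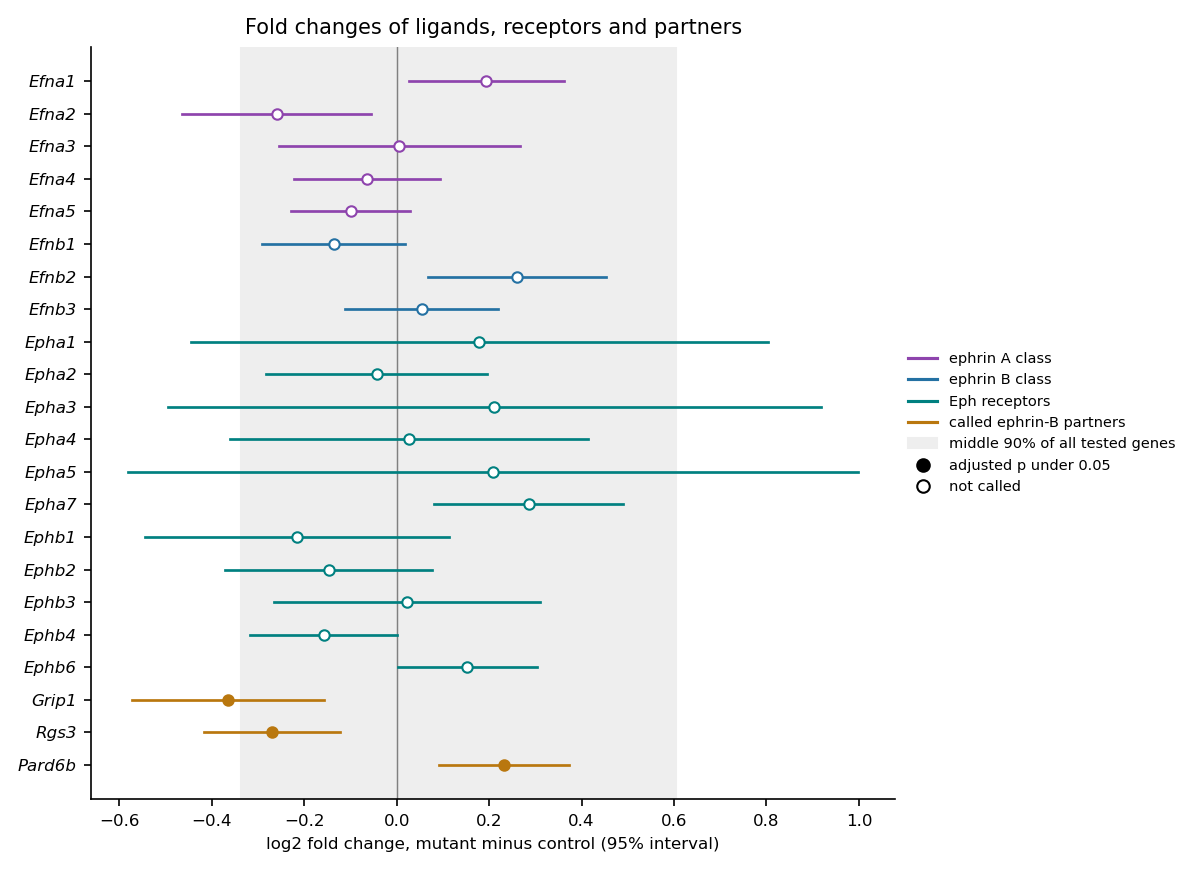
Log2 fold change (mutant minus control) with its 95% interval for the A class and B class ephrins, the 11 tested Eph receptors and the called ephrin-B partners, with filled points for an adjusted p under 0.05. All ephrin intervals lie between -0.47 and 0.45, and the ephrin estimates run from -0.26 to 0.26. The grey band shows the middle 90% of the estimates of all tested genes, from -0.34 to 0.60, and not their intervals.

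Proteins that carry the reverse signal of B class ephrins included 3 called genes. Of 12 partners tested, 1 rose, 2 fell and 9 were not called, with a median log2 fold change of -0.056 beside -0.0069 over all genes, of which 5.4% rose and 3.03% fell. The list was chosen with earlier results of these data known, so its count beside all genes is not a test. Grip1 encodes a scaffold with PDZ domains that binds the ephrin-B tail. It fell, with 623, 517, 608 and 563 normalised reads in mutants 1 to 4, against 801, 647, 712 and 824 in controls 1 to 4 (log2 fold change -0.37, SE 0.095, limma adjusted p = 0.0366). Every mutant lay below every control.

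Rgs3 encodes a regulator of G protein signalling, and its PDZ-containing form binds ephrin-B tails. It fell as well, with 2212, 2297, 2112 and 2016 normalised reads in mutants 1 to 4, against 2339, 2683, 2783 and 2616 in controls 1 to 4 (log2 fold change -0.27, SE 0.067, adjusted p = 0.0307). The reads do not separate its isoforms, and the highest mutant lay just below the lowest control. Pard6b, a polarity protein of the Par complex, rose, with 1349, 1198, 1176 and 1217 normalised reads in mutants 1 to 4, against 1040, 1001, 1054 and 1108 in controls 1 to 4 (0.23, SE 0.064, adjusted p = 0.0473). Its groups were also separate.

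These 3 calls lay near the threshold (limma adjusted p of 0.0307 to 0.0473). Most fits with fewer libraries and some changes of processing lost them. Fits with 1 library left out called between 774 and 1565 genes over all, against 1297 in the main fit. With 1 library left out, the Grip1 call held in 2 of 8 fits (without control 2 or mutant 1; adjusted p 0.0217 to 0.114 over the 8). The Rgs3 call held in 3 of 8 (without control 1, mutant 1 or mutant 2; 0.0092 to 0.110), and the Pard6b call in 0 of 8 (0.0598 to 0.135). The Pard6b call was also lost with TMM scaling (adjusted p = 0.0674), limma-voom (0.0724) and no filter on low values (0.0654), where the calls of Grip1 and Rgs3 held. The deposited values as they stand, which keep a second division by recycled size factors, gave 698 called genes. None of the 3 was among them (adjusted p = 0.0921 for Grip1, 0.136 for Rgs3 and 0.201 for Pard6b). Nor was any called without control 3 and mutant 2 (0.127, 0.0781 and 0.122 in the same order of genes) or without control 2 and mutant 2 (0.0554, 0.0984 and 0.187). The sign of each gene stayed the same in all of these fits. The authors' deposited table, which calls 12.5% of 15144 genes, calls all 3 genes (adjusted p = 0.00766 for Grip1, 0.00362 for Rgs3 and 0.0143 for Pard6b). The kinase gene Fyn was not called (0.18, limma adjusted p = 0.0695), although its groups were separate and the authors' deposited table calls it (adjusted p = 0.0197).

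**Figure D5:**
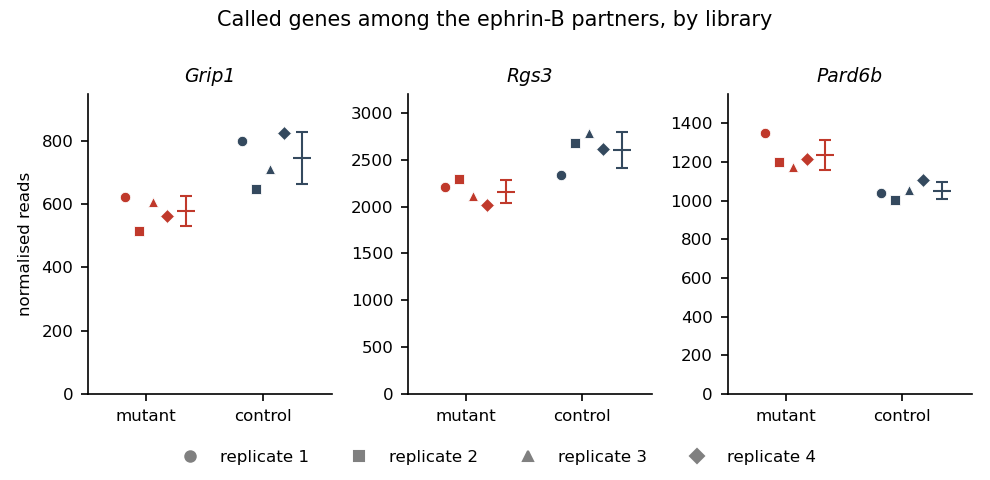
Normalised reads of Grip1, Rgs3 and Pard6b in every library (vertical axes start at 0), with mutants left of controls and bars for the mean and SD of 4 libraries. Mutants lie below all controls for Grip1 and Rgs3 and above all controls for Pard6b.

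Genes that act on the receptor side or on the ligand itself were not called. Of the 17 forward signalling effectors, 0 were called and 1 had an unadjusted p under 0.05 in limma, beside 8.43% and 23.3% of all tested genes. This was Itsn1, a guanine nucleotide exchange factor that acts with EphB2, at 5218 ± 151 normalised reads in mutants and 5686 ± 153 in controls (SD, n = 4 each, log2 fold change -0.12, adjusted p = 0.157). Its groups were separate, and the authors' deposited table calls it (adjusted p = 0.0471). Chn1, a Rac-inactivating effector of EphA4, had a log2 fold change of -0.14 (adjusted p = 0.217), and Vav2 one of -0.15 (adjusted p = 0.263). Of 7 proteases that cleave ephrins or Ephs, 0 were called and 1 had an unadjusted p under 0.05 in limma, against the same shares of all genes. The authors' deposited table also calls 0 of the 7, beside 12.5% of its 15144 genes. Adam17, a sheddase, was at 3219 ± 155 in mutants and 2851 ± 174 in controls (SD, n = 4 each, log2 fold change 0.18, adjusted p = 0.105). Adam8 (-0.29, adjusted p = 0.364) and Mmp14 (0.051, adjusted p = 0.605) followed by p among the others.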

How the data were processed

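Per the labels' protocols, polyadenylated RNA was turned into libraries by a kit that keeps strand. STAR 2.5.3a, DESeq2 1.18.1 and the mm10 build are named in the submitters' processing notes, while no source used here gives the read counter, the annotation or the strand setting. The deposited table holds a signal per library, which the values show to be read counts divided by size factors, divided a second time with the factors recycled down the genes, and rounded. Both divisions were undone: whole reads rebuilt the deposited mean within a relative 1e-09 for 20254 of 20254 genes. The authors' log2 fold changes and p-values, deposited in the same table, were an alternative; the deposited score was not used.

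Reads divided by size factors were tested for the 15381 genes with at least 10 in at least 4 libraries, on log2(value + 1), with limma 3.58.1 in R 4.3.3 (trended, robust variances; 8 libraries, no covariate; two-sided; Benjamini-Hochberg), and called at an adjusted p under 0.05. Depth was 37252683 to 46515762 reads. The limma fit was tested on simulated data. Count models had been planned but were not run, and limma-voom was run on the recovered reads in their place. The labels do not say that replicate numbers pair the libraries, and a check of their deviations could not exclude it. Single ephrins also had exact permutation tests of log2 values (scipy 1.17.1).

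The members and lists were chosen with earlier results of these data known. Named genes are the ephrins, Eph receptors, Vhl, genes next to Efna1, Efna3 and Efna4, markers, and in each pathway list every called gene or else the 3 of smallest p. Xist and Fyn were named after their values were seen. A rule for genes of like pattern applied to called ephrins only, which were 0. The values of 1 marker are not reported here. Alternatives were the pseudocount, the filter on low values, TMM scaling, limma-voom, the deposited values as they stand, a replicate block, and libraries left out.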

Additional observations from a re-analysis of the deposited data

Results flagged for a closer look

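Each gene named above and each group of 4 libraries was searched for a library that stood apart from the other 3, by Dixon's ratio of its gap to the group's range. Of 78 such groups 5 had one, where chance gives about 1 in 20. For Efnb1, mutant 2 was at 11244 normalised reads, above the other mutants at 9955 to 10159; mutant 2 is also a library with almost no Xist reads and the mutant with the lowest sums of markers of other cell types, and their part in this was not tested. For Itsn1, control 3 was at 5915, above the other controls at 5600 to 5621. For Adam17, control 1 was at 3110, above 2751 to 2786 in the other controls. For Adam8, mutant 1 was at 117.5, below 163.1 to 172.0 in the other mutants. For Dpm3, control 1 was at 702.6, below 875.5 to 908.3 in the other controls.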

How the results depend on the processing

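No ephrin was called, or changed sign, under any of 19 alternatives, except for Efnb2, Efna3 and Efnb3. Efnb2 was called without mutant 4 and in the authors' deposited table (0.27), with 0.21 to 0.34 over the fits with 1 library left out. Efna3 was -0.0046 with TMM scaling, -0.0055 with limma-voom, -0.034 with control 2 and mutant 2 left out, and -0.041 to 0.087 with 1 library left out; Efnb3 was -0.0086 with control 2 and mutant 2 left out. The B class then had 1 called gene without mutant 4 and in the authors' table, and the Eph receptors had 1 without mutant 2 and in the authors' table (0 to 1 with 1 library left out, for both).

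Over all genes, 698 (538 higher, 160 lower) were called on the deposited values as they stand, 764 (541, 223) when control 3 and mutant 2 were dropped, and 662 (487, 175) when control 2 and mutant 2 were, fits with fewer libraries. The authors' table has 810 lower genes of 1888. With 1 library left out the counts ran from 774 to 1565 (541 to 913 higher, 231 to 652 lower); lower genes were 263 without control 2, 231 without control 4, 279 without mutant 3 and 233 without mutant 4. TMM scaling moved the median of all genes by -0.011.

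The labels do not say that replicate numbers pair the libraries. Deviations of same-numbered libraries correlated between -0.144 and 0.213, and 1 of 4 mutants correlated best with its own number. Mutant 2 and control 3, with different numbers, correlated most (0.57). So few correlations cannot exclude a pairing. With the number as a block, 766 genes were called (550 higher, 216 lower), and Grip1 (adjusted p = 0.0514), Rgs3 (0.0879) and Pard6b (0.137) were not; the ephrins stayed uncalled.

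Of the receptors, Epha2 was 0.080 with control 2 and mutant 2 left out. With 1 library left out it ran from -0.15 to 0.028, Epha1 from -0.067 to 0.36, Epha4 from -0.084 to 0.16, Epha5 from -0.018 to 0.50, Ephb3 from -0.087 to 0.11 and Adam15 from -0.048 to 0.011. The cause of these shifts was not tested. The planned edgeR and DESeq2 fits were not run; limma-voom was the fit made on the recovered reads. Depth limits Efna3 most among the ephrins.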
